A study of Mus musculus with 4 samples.

Results

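Genes of the G1 phase of the cell cycle were examined in cultured mouse hair follicle mesenchyme: the D cyclins Ccnd1, Ccnd2 and Ccnd3, their kinases Cdk4 and Cdk6, the E cyclins Ccne1 and Ccne2, and the transcription factors E2f1, E2f2 and E2f8. The members were chosen by gene name from the deposited count table, and all 10 were found among its 51826 genes. All 10 also had a mean of at least 10 reads over the libraries, which held for 16734 genes. The RNA came from dermal papilla cells (DPCs), the mesenchymal cells at the base of the hair bulb, and from dermal sheath cells (DSCs), which wrap the follicle. Both were cultured from whisker follicles of EGFP-transgenic C57BL/6J mice, aged 5 to 6 weeks in the study's methods, DPCs as outgrowths of isolated papillae and DSCs as a suspension of the digested sheath. The EGFP transgene is stated in the study's methods, whereas the labels give the genotype of every library as WT. Neither source sets the groups apart by genotype, and the labels name no drug or other agent. The groups therefore differ in cell type and passage. Low passage stands for passage 3 and high passage for passage 9. The 4 groups had 1 library each, so no difference below has a replicate check and no p-value is given. The number of animals behind each culture and the driver of the transgene are not given in the sources used here. The study used these libraries to ask what changes in DPCs and DSCs as they are passaged, since it compared the homing of low-passage and high-passage cells to the follicle.

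D cyclins are made in response to growth signals and activate CDK4 and CDK6, which phosphorylate the retinoblastoma protein and its relatives (the pocket proteins). Phosphorylation frees E2F factors, which switch on Ccne1, Ccne2 and the genes of DNA replication, and cyclin E with CDK2 then carries the cell into S phase. E2F1 and E2F2 are activators of this set, while E2F8 is an atypical E2F that represses the same genes later in the cycle. In cultured fibroblasts these genes are read as part of the commitment to divide, and the CDK inhibitors oppose them.

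The libraries held between 34981284 and 47604059 counts. Counts were scaled to CPM, counts per 1000000 counts of the library, with TMM factors between 0.957 and 1.041. Every interval below is a 95% interval that covers counting error only. The intervals are exact, except those of a DPC change minus a DSC change, which are normal approximations. Fibroblast genes were detected in all libraries (7 of 7), with summed levels of 18710 and 7311 CPM in low- and high-passage DPCs and 27561 and 22676 in DSCs. The 5 dermal sheath and smooth muscle markers were also detected in all, with sums of 9431 and 3492 CPM in DPCs and 7477 and 6514 in DSCs. Both sums were thus lower at high passage, most of all in DPCs, but single markers did not all follow them. Itga8 was higher at high passage in DPCs (186 and 967 CPM) and in DSCs (44.1 and 511). Pdgfra was higher too (304 and 811, 121 and 266). Myh11, Cnn1, Col3a1 and Thy1 were lower at high passage in DPCs but higher in DSCs, and the other markers on both lists were lower in both. Of 9 dermal papilla markers, 7 or 8 exceeded 3 counts in each library, but Alpl did not exceed 23 counts, Lepr 18 or Corin 10 in any library. Lef1 was at 508 and 2 counts in low- and high-passage DPCs and at 101 and 55 in low- and high-passage DSCs, and the markers did not separate the cell types in 1 direction. Sox2 was higher in DPCs (45.6 and 41.5 CPM) than in DSCs (7.09 and 3.91 CPM), but Ncam1 was higher in DSCs (310.0 and 342 CPM) than in DPCs (99.0 and 46.6), as was the sum of the dermal papilla markers (461 and 414 against 273 and 191). The keratinocyte genes Krt5, Krt14, Krt15 and Cdh1, the melanocyte genes Dct, Tyr, Tyrp1 and Mlana and the T-cell gene Cd3e had 0 counts in all libraries. The summed levels of the immune markers (25.2 and 9.95 CPM in DPCs, 33.8 and 14.7 CPM in DSCs, low before high passage), Schwann cell markers (9.84 and 6.35, 19.4 and 10.7) and endothelial markers (0.924 and 0.111, 2.64 and 0.395) were lower at high passage. The part of these marker levels in the results was not tested.

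In DPCs, 5 of the 10 genes were at least 2-fold lower at passage 9 than at passage 3 (Ccnd1, Cdk4, Ccne2, E2f2 and E2f8), beside 15.0% of all genes tested. Ccnd3 alone was at least 2-fold higher, beside 16.1% of all genes. E2f2 and E2f8 were at least 4-fold lower, the fold that the study used, beside 4.36% of all genes. Neither call held on FPKM with a pseudocount of 1. In DSCs, 3 of the 10 were at least 2-fold lower (Ccne2, E2f2 and E2f8), beside 6.21% of all genes. None was 2-fold higher there, beside 8.55%, and none was 4-fold lower, beside 1.16%. These 3 genes were therefore 2-fold lower in both cell types, which held for 3.54% of all genes. On FPKM with a pseudocount of 1, E2f8 alone stayed so (-1.67 in DPCs and -1.08 in DSCs). There E2f2 changed by -0.46 and -0.65, and Ccne2 by -0.95 in DSCs. The median log2 change of the 10 genes was -1.04 in DPCs and -0.05 in DSCs, beside medians over all genes of 0.03 and 0.00. In bulk RNA, fewer dividing cells and less of a transcript in each cell cannot be told apart.

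**Figure D1:**
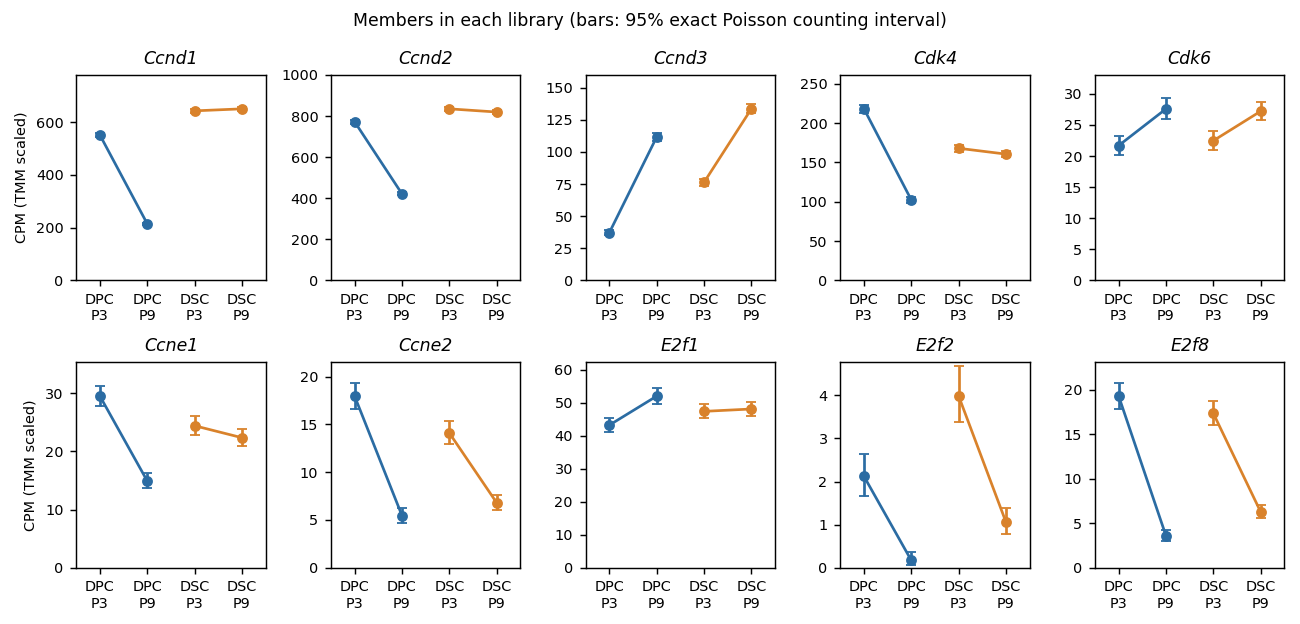
CPM of the 10 genes (vertical axes, linear from 0) in the DPC and DSC libraries at passage 3 (P3) and passage 9 (P9), with 95% exact Poisson counting intervals as bars. Ccnd1, Ccnd2, Cdk4 and Ccne1 drop along the DPC line and stay nearly level along the DSC line, whereas Ccne2, E2f2 and E2f8 drop along both and Ccnd3 climbs along both.

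Ccnd1, the D cyclin most closely tied to growth factor signals (ENSMUSG00000070348, chromosome 7, 144929931 to 144939925, minus strand, GRCm38), had 20280 counts in DPCs at passage 3 and 7695 at passage 9, and 24377 and 29642 counts in DSCs at those passages. These were 551, 214, 643 and 650 CPM, so the high-passage DPC library stood below the other three. The log2 change with passage was -1.36 in DPCs (-1.40 to -1.32) and 0.02 in DSCs (-0.01 to 0.04), and the DSC interval includes 0. At passage 9 the level in DPCs was 3.03-fold lower than in DSCs.

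Ccnd2, a second D cyclin (chromosome 6, 127125162 to 127152193, minus strand), had 28424, 15120, 31669 and 37352 counts in the same order, or 772, 421, 835 and 820 CPM. Again the high-passage DPC library was the low one. The log2 change was -0.87 in DPCs (-0.90 to -0.85), just short of 2-fold, and -0.03 in DSCs (-0.05 to -0.005).

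Ccnd3, the D cyclin often kept in differentiating and resting tissue (chromosome 17, 47505051 to 47599691, plus strand), went the other way. It had 1365, 4006, 2894 and 6089 counts, or 37.1, 112, 76.3 and 134 CPM, and the low-passage DPC library was the lowest. With passage, its log2 CPM changed by 1.59 in DPCs (1.50 to 1.68) and 0.81 in DSCs (0.74 to 0.87). The intervals of Ccnd1 and Ccnd3 in DPCs therefore lie on opposite sides of 0.

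The makeup of the D cyclins was compared on the deposited FPKM (fragment numbers divided by the length of the transcript and by library depth), since levels of different genes can be compared only per length. In low-passage DPCs the summed FPKM of the D cyclins was 277.5, of which Ccnd1 gave 49.2%, Ccnd2 42.6% and Ccnd3 8.21%. In high-passage DPCs the sum was 204.8, with shares of 26.8%, 32.4% and 40.8%, so Ccnd3 had gone from the smallest share to the largest. In DSCs the sum was 333.8 at low and 359.2 at high passage. The share of Ccnd3 went from 16.5% to 25.5% there, while Ccnd1 kept the largest share (46.0% and 41.8%). The FPKM change of Ccnd3 in DPCs was larger than its count change (log2 1.88 against 1.59), because 1 FPKM stood for more unscaled CPM in low-passage DPCs (1.70) than in the other libraries (1.36 to 1.40).

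**Figure D2:**
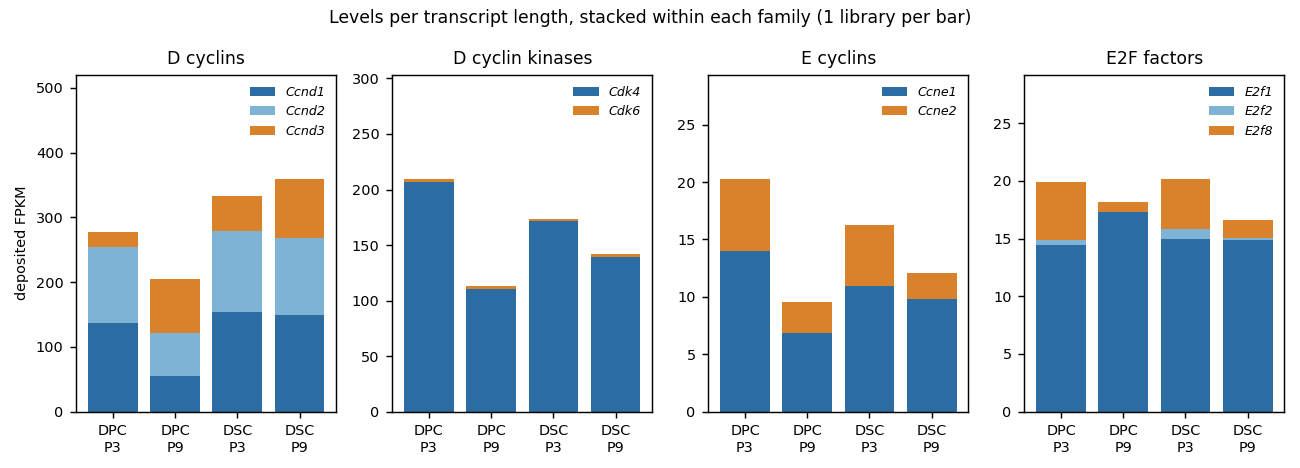
Deposited FPKM (vertical axes, linear from 0) of the D cyclins, their kinases, the E cyclins and the E2F factors, stacked within each library, with 1 bar per library. Ccnd3 takes 8.21% of the D cyclin bar in low-passage DPCs and 40.8% in high-passage DPCs, Cdk4 makes up 97.3% or more of each kinase bar, and E2f1 makes up 94.9% of the E2F bar in high-passage DPCs.

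Cdk4, the main partner of D cyclins in most mesenchymal cells (chromosome 10, 127063534 to 127067920, plus strand), had 8027, 3666, 6370 and 7317 counts, or 218, 102, 168 and 161 CPM in low- and high-passage DPCs and low- and high-passage DSCs. It was highest in low-passage DPCs and lowest in high-passage DPCs, with both DSC libraries between them. The log2 change was -1.09 in DPCs (-1.15 to -1.04) and -0.07 in DSCs (-0.11 to -0.02). As log2 ratios of FPKM, with no pseudocount, these were -0.91 and -0.30.

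Cdk6, the related kinase (chromosome 5, 3341485 to 3531008, plus strand), had 798, 990, 852 and 1240 counts, or 21.7, 27.6, 22.5 and 27.2 CPM. Both high-passage libraries were above both low-passage ones. Its log2 change with passage was 0.35 in DPCs (0.21 to 0.48) and 0.28 in DSCs (0.15 to 0.40), and the DPC change minus the DSC change was 0.07 (-0.11 to 0.26). At the same passage the cell types did not differ beyond counting error, with log2 differences (DPCs over DSCs) of -0.05 (-0.19 to 0.09) at passage 3 and 0.02 (-0.10 to 0.14) at passage 9, but on FPKM with a pseudocount of 0.1 these were 0.22 and 0.28, outside the intervals. Cdk6 was the minor kinase throughout, at 2.01 to 3.07 FPKM beside 110 to 207 for Cdk4.

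Of the 10 genes, 7 had a 250-base window before the RefSeq start in the promoter table (GRCm38.p6): Ccnd3, Cdk4, Cdk6, Ccne1, E2f1, E2f2 and E2f8. The RefSeq start is not always the deposited one. The E2f1 window lay 466 bases from the deposited start and was exonic in all 250 bases of the GENCODE annotation, and the Cdk6 window lay 2408 bases from it with 57 exonic bases. The windows were searched on both strands for the E-box CACGTG, a palindrome bound by Myc and related proteins, for the E2F words TTTCCCGC, TTTGGCGC, TTTCGCGC and TTTGCCGC, which can overlap each other, and for the cyclic AMP response element TGACGTCA. The 3 windows below are shown because their genes moved in different ways on counts. Cdk4 was lower in DPCs alone at the 2-fold threshold, Ccnd3 was higher and E2f8 lower in both cell types. Capitals mark the E-box.
Cdk4, chr10:127063285-127063534, plus strand: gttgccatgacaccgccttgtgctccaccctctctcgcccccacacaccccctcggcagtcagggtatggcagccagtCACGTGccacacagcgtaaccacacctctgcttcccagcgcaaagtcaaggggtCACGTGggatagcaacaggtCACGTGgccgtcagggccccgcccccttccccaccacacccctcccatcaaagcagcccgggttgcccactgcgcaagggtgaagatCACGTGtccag
Ccnd3, chr17:47504801-47505050, plus strand: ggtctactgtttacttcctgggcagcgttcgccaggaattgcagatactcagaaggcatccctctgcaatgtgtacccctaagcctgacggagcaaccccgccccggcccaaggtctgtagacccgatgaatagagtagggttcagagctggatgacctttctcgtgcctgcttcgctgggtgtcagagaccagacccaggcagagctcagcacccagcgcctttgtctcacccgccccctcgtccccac
E2f8, chr7:48881597-48881846, minus strand: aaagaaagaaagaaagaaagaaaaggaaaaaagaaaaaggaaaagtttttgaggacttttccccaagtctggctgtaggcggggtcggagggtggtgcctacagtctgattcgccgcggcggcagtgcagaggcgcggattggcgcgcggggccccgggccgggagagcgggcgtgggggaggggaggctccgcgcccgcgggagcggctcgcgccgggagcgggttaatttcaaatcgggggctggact

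The Cdk4 window held 4 E-boxes, which started 172, 118, 98 and 11 bases before the start. At least 1 E-box stood in 6.02% of 32851 windows of the same length, and 4 or more in 0.0213% of them (7 windows). Cdk6 held 1 E-box, 220 bases before its RefSeq start. The E2F words were found in 0 of the 7 windows and in 1.86% of all windows, and the response element in 0 of 7 and in 1.55%. No match says only that these letters are not in these windows. Myc, named here after its values were seen, had 1726, 781, 1940 and 1195 counts. Its log2 change was -1.11 in DPCs and -0.96 in DSCs, and that of Cdk4 was -1.09 and -0.07. A part of Myc in the Cdk4 change was not tested.

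Ccne1, which activates CDK2 at the end of G1 (chromosome 7, 38097984 to 38107534, minus strand), had 1086, 535, 926 and 1019 counts, or 29.5, 14.9, 24.4 and 22.4 CPM. The high-passage DPC library was the low one, as for Ccnd1 and Ccnd2. Passage changed its log2 CPM by -0.98 in DPCs (-1.14 to -0.83) and -0.13 in DSCs (-0.26 to 0.00), and the DSC interval includes 0.

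Ccne2, its paralog (chromosome 4, 11191351 to 11204779, plus strand), had 661, 196, 535 and 310 counts, or 18.0, 5.46, 14.1 and 6.80 CPM. Here both high-passage libraries were below both low-passage ones. On the count scale the log2 change was -1.71 in DPCs (-1.95 to -1.49) and -1.05 in DSCs (-1.26 to -0.85). On the FPKM scale the changes were -1.25 and -1.22, so the gap between the cell types seen in the counts was smaller there. Ccne1 made up 69.2% and 72.5% of E cyclin FPKM in low- and high-passage DPCs and 67.4% and 81.2% in low- and high-passage DSCs.

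E2f1 (chromosome 2, 154559407 to 154569892, minus strand) had 1590, 1866, 1797 and 2192 counts, or 43.2, 52.0, 47.4 and 48.1 CPM. It varied little over the libraries, with high-passage DPCs highest and low-passage DPCs lowest. Its change with passage was 0.27 on the log2 scale in DPCs (0.17 to 0.36) and 0.02 in DSCs (-0.07 to 0.11). E2f1, itself known as a target of E2F activity, was thus no lower at high passage in either cell type. E2F activity was not measured.

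E2f2, the second activator measured (chromosome 4, 136172394 to 136196057, plus strand), was scarce, with 78, 6, 151 and 48 counts, or 2.12, 0.167, 3.98 and 1.05 CPM. Each high-passage library was below both low-passage libraries. The log2 change was -3.31 in DPCs (-5.15 to -2.48) and -1.87 in DSCs (-2.42 to -1.44). The DPC value rests on 6 counts at passage 9, and the 3-count floor of that library is 0.0836 CPM.

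E2f8, the repressor (chromosome 7, 48866429 to 48881596, minus strand), had 709, 128, 657 and 285 counts, or 19.3, 3.57, 17.3 and 6.25 CPM. At passage 3 the cell types did not differ beyond counting error (log2 difference 0.15, -0.002 to 0.31), and both high-passage libraries lay well below. The log2 change was -2.42 in DPCs (-2.72 to -2.16) and -1.46 in DSCs (-1.68 to -1.27). In FPKM, E2f1 made up 72.7% and 94.9% of the sum of E2f1, E2f2 and E2f8 in low- and high-passage DPCs and 74.1% and 89.6% in DSCs. The share of E2f8 went from 25.3% to 4.91% in DPCs and from 21.6% to 9.27% in DSCs.

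**Figure D3:**
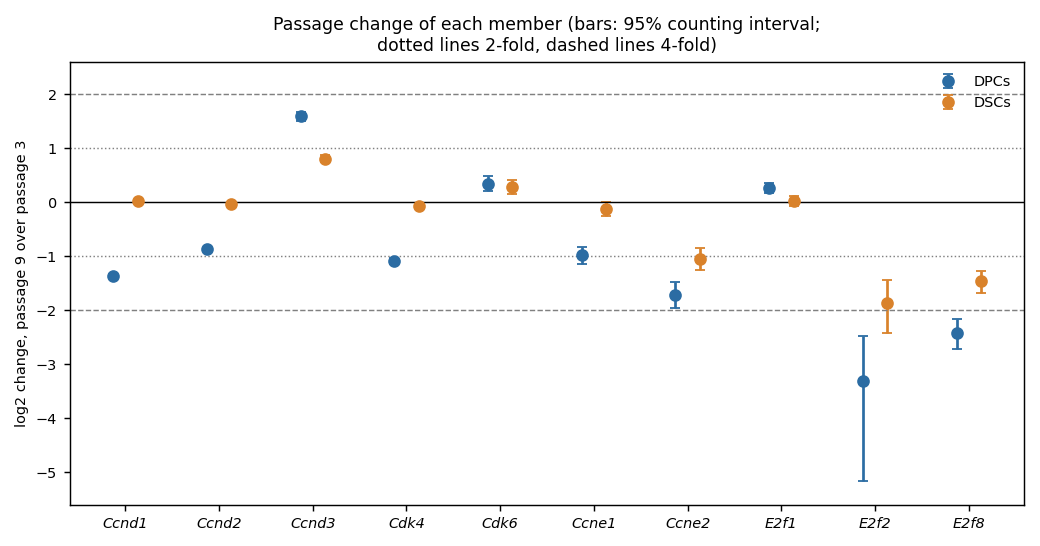
Log2 change from passage 3 to passage 9 (vertical axis) of each gene in DPCs and DSCs, with 95% counting intervals as bars, dotted lines at 2-fold and dashed lines at 4-fold. Ccnd1, Ccnd2, Cdk4 and Ccne1 sit between -0.87 and -1.36 in DPCs and between -0.13 and 0.02 in DSCs, while Ccne2, E2f2 and E2f8 sit at or below -1.05 in both.

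The genes fell into patterns when the DPC change was set against the DSC change. The DPC change minus the DSC change was -1.38 for Ccnd1 (-1.42 to -1.33), -1.03 for Cdk4 (-1.10 to -0.95), -0.86 for Ccne1 (-1.05 to -0.66) and -0.85 for Ccnd2 (-0.88 to -0.81) on the log2 scale. On counts, these 4 genes were lower at high passage in DPCs and within 0.13 of 0 in DSCs. The Cdk4 gap was smaller on FPKM, with changes of -0.91 in DPCs and -0.30 in DSCs. The difference on counts was -0.95 for E2f8 (-1.29 to -0.62), -0.66 for Ccne2 (-0.97 to -0.36) and -1.44 for E2f2 (-2.73 to -0.16), which were lower in both cell types. The Ccne2 gap nearly closed on FPKM (-1.25 in DPCs and -1.22 in DSCs), and E2f2 changed by -0.46 in DPCs and -0.65 in DSCs on FPKM with a pseudocount of 1, the other order. When the counts were halved, for the case that both mates of a read pair were counted, the interval for E2f2 widened to -3.26 to 0.37. For Ccnd3 the difference was 0.78 (0.67 to 0.89), an increase larger in DPCs, and for E2f1 it was 0.25 (0.11 to 0.38). With 1 library per group, these intervals compare the libraries and not the cell types.

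The cell types were also compared at equal passage. At passage 3, 9 of the 10 genes differed by less than 2-fold, where 13.3% of all genes were at least 2-fold apart in either direction. Ccnd3 was at least 2-fold lower in DPCs than in DSCs (log2 difference -1.04, -1.13 to -0.95), beside 7.86% of all genes lower by 2-fold. Under total counts the Ccnd3 difference was -0.95 and the call was lost. Cdk4 (0.38), Ccne2 (0.35) and Ccne1 (0.27) were somewhat higher in DPCs, and E2f2 was lower (-0.89). At passage 9, 8 of the 10 genes were lower in DPCs. The median log2 difference of the 10 genes was -0.62, beside -0.01 over all genes. Ccnd1 (-1.60) and E2f2 (-2.34) were at least 2-fold lower, beside 11.0% of all genes, and E2f2 was at least 4-fold lower, beside 3.91%. This 4-fold call was lost with a prior count of 10 (-1.63) and on FPKM with a pseudocount of 0.1 (-1.16) or 1 (-0.21). Cdk4 (-0.65), Ccne1 (-0.58), Ccne2 (-0.31, but 0.19 on FPKM with a pseudocount of 0.1) and E2f8 (-0.80) stood on the other side of 0 from their passage 3 differences. These comparisons share their libraries with the passage comparisons and are not independent of them.

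The other genes of the pathway were taken from lists of textbook members. Among 7 other E2F and DP factors (DP proteins are the partners that E2Fs need to bind DNA), E2f7, the other atypical repressor, was at least 2-fold lower in both cell types (log2 change -1.34 in DPCs and -1.06 in DSCs), beside E2f8. Tfdp2, which encodes a DP partner, was the only one at least 2-fold higher in both, with 1264, 5596, 684 and 2652 counts and log2 changes of 2.18 and 1.69. Over all genes tested, 3.54% were at least 2-fold lower and 4.86% at least 2-fold higher in both cell types. Tfdp1 (-0.37 and -0.44), E2f3 (-0.17 and 0.02), E2f4 (0.22 and -0.05) and E2f5 (-0.48 and -0.22) changed by less than 2-fold. The medians of the list were -0.17 and -0.13.

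Of 15 other G1 regulators, 14 were tested, and their medians were -0.39 in DPCs and -0.16 in DSCs. In DPCs 5 were at least 2-fold lower and 1 higher, and in DSCs 2 were lower and 0 higher, beside 15.0% lower and 16.1% higher of all genes in DPCs and 6.21% and 8.55% in DSCs. The lowest was Ccna2, the S-phase cyclin (-3.24 and -1.93), followed by Cks2, a CDK-binding subunit (-2.29 and -1.02), and Skp2, which targets p27 for degradation (-1.56 and -0.84). The pocket proteins differed among themselves. Rbl2, which encodes p130, the pocket protein of resting cells, was at 49.4 and 126 CPM in low- and high-passage DPCs and at 53.4 and 88.8 in low- and high-passage DSCs (log2 change 1.34 and 0.73). Rb1 changed by 0.63 and 0.26, and Rbl1, which encodes p107 and is known as an E2F target, by -0.96 and -0.68. Cdk2, the partner of cyclin E, changed by -0.24 and 0.04, and Cdk7, of the CDK-activating kinase, by 0.75 and 0.29.

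The median change of the 7 CDK inhibitors was 0.29 in DPCs and 0.22 in DSCs. Cdkn2a, which encodes p16 and p19ARF and accumulates in aging cultures, was at least 2-fold higher in both, with 719, 1538, 942 and 3211 counts and log2 changes of 1.13 (1.00 to 1.26) and 1.50 (1.40 to 1.61). Cdkn1c was 2-fold higher in DSCs alone by this rule (2.71, from 9 to 84 counts, against 0.71 in DPCs). Cdkn2c, an inhibitor of CDK4 and CDK6, was at least 2-fold lower in DPCs (-1.38) and changed by -0.15 in DSCs. Cdkn1a (-0.32 and 0.09), Cdkn1b (0.58 and 0.22), Cdkn2b (-0.58 and 0.07) and Cdkn2d (0.29 and 0.54) stayed under 2-fold. Over all genes tested, 16.1% were at least 2-fold higher and 15.0% lower in DPCs, 8.55% were higher in DSCs and 4.86% higher in both.

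Most genes downstream of the E2Fs were at least 2-fold lower in DPCs, and fewer were in DSCs. Of 40 E2F target genes, mostly of DNA replication, 31 were at least 2-fold lower in DPCs and 18 in DSCs, 9 and 0 were at least 4-fold lower, and none was 2-fold higher. Over all genes tested, 15.0% and 6.21% were 2-fold lower and 4.36% and 1.16% were 4-fold lower. The medians were -1.51 and -0.96. The lowest were Cdc6 (-2.96 and -1.47) and Orc1 (-2.82 and -1.61), which load the replication helicase, and Uhrf1 (-2.67 and -1.42), while Msh6 (0.19 and -0.20), Slbp (-0.19 and -0.37) and Fen1 (-0.26 and -0.50) were at the other end. In DSCs the median of these targets was thus below 0 while Ccnd1, Ccnd2, Cdk4 and E2f1 were within 0.07 of 0 on counts (Cdk4 at -0.30 on FPKM). Of the 32 targets with a promoter window, 10 held an E2F word (31.25%), beside 2.16% of 27025 genes with a window. The list was made of textbook E2F targets, so this share is a description and not a test. It was 27.3% of 11 other G1 regulators, 60% of 5 other E2F and DP factors, 16.7% of 6 CDK inhibitors and 5.26% of 19 G2 and mitosis genes. Of 22 genes of G2 and mitosis, 22 were at least 2-fold lower in DPCs and 19 in DSCs, beside the same 15.0% and 6.21% of all genes, with medians of -2.92 and -1.40. Cdc20 (-4.20 and -2.28), Ccnb1 (-3.45 and -1.75) and Birc5 (-2.96 and -1.82) were the lowest, and Foxm1 (-2.41 and -0.50), Cenpe (-1.84 and -0.92) and Cdk1 (-1.04 and -0.54) were at the other end.

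**Figure D4:**
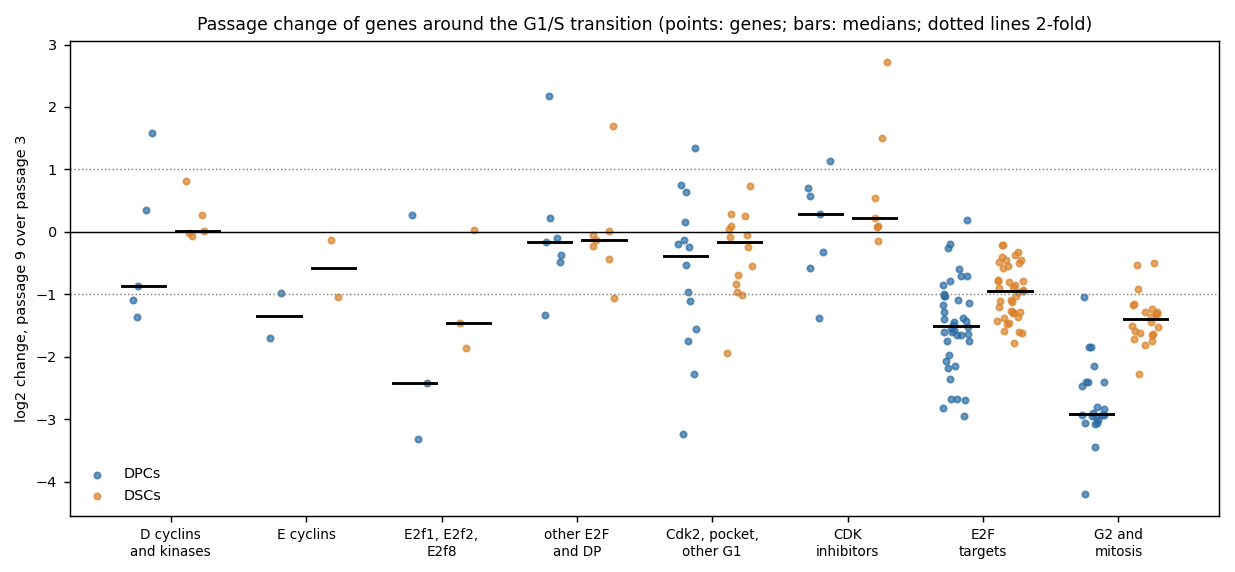
Log2 change from passage 3 to passage 9 (vertical axis) of the genes of each list in DPCs and DSCs, with 1 point per gene tested, horizontal bars at the medians and dotted lines at 2-fold. The medians of the E2F targets are -1.51 in DPCs and -0.96 in DSCs, while the D cyclins and their kinases have medians of -0.87 and 0.02.

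The genes whose pattern over the 4 libraries was most like a member's were found by the root mean square difference of centred log2 CPM among 12182 genes. For Ccnd1 they were Fbln2 (0.0367), Rragd (0.0470), Cdkn2c (0.0611), Igsf3 (0.0634) and Thbs1 (0.0710), with log2 changes of -1.16 to -1.42 in DPCs and of -0.15 to 0.05 in DSCs. For Ccnd2 the nearest was Arhgap27 (0.0260), for Ccne1 S100a6 (0.00440) and for E2f1 Rab7 (0.0131). Likeness over 4 libraries is a description of these libraries.

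All 10 genes are annotated as protein-coding, with the deposited positions in GENCODE M21. Several overlap exons of a gene on the other strand, and the use of strand in the counting is not given in the sources used here. The overlap covered 23.4% of the exonic bases of Ccnd1 (Oraov1, 363 to 504 counts), 19.7% of Cdk4 (Tspan31), 17.4% of Ccne2 (Ints8) and 11.2% of E2f8 (Gm2788, 3 to 14 counts). Tspan31 had 3923, 6429, 4961 and 7297 counts, so it was higher at high passage where Cdk4 was lower. Ints8 had 1792, 976, 1667 and 1518 counts, more than Ccne2 in each library, and was lower in high-passage DPCs too. Its part in the Ccne2 change was not tested. No exon overlapped on the same strand, and at most 1.99% of the 50-base windows of a member (Ccnd3) occurred in another gene.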

How the data were processed

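RNA of DPCs and DSCs at passages 3 and 9 was measured by paired-end sequencing of poly-A mRNA, with 1 library per group. The authors deposited 1 table of raw counts per gene (whole numbers, not normalized) and 1 FPKM table per library, in which the authors had scaled fragments by transcript length and mapped fragments. The submitters' processing notes name Bowtie 0.12.2 and older mouse builds. The counting program and its use of strand are not given in the sources used here. Of 51826 gene IDs, 51633 were in GENCODE M21 (GRCm38), 94.1% of them with an identical position.

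Of these, 16734 averaged 10 or more raw counts per library and were kept. Counts were scaled by TMM in edgeR 4.0.16, and log2 CPM was computed with a prior count of 2. Changes are differences of log2 CPM, called at 2-fold and at 4-fold. Each fold change has an exact 95% (Clopper-Pearson) interval from both counts, with binomial bounds scaled by effective library size, and differences of changes have a normal interval from counting error. All intervals and the floor of 3 counts cover counting error only. In each library more genes had a count of 4 than of 3 (754 and 583 in low-passage DPCs), so intervals were repeated on halved counts. The scripts were tested on simulated data. Alternatives were other scalings (DESeq2 1.42.0 size factors among them), prior counts, minimum counts and FPKM with a pseudocount.

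Sequences came from RefSeq (GRCm38.p6). Members and lists were chosen with earlier results of these data known. The named list genes are the 3 lowest and 3 highest by mean passage change among genes averaging 100 or more counts, plus the pocket proteins, Cdk2, E2f7 and the common inhibitors.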

Additional observations from a re-analysis of the deposited data

Results flagged for a closer look

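Among the members and named pathway genes, 7 changed with opposite signs in DPCs and DSCs, with 1 library per group, and the difference was not tested. The DPC change minus the DSC change (log2) was -1.38 for Ccnd1, -0.28 for Cdk2, -0.41 for Cdkn1a, -0.65 for Cdkn2b, -0.18 for E2f3, 0.27 for E2f4 and 0.40 for Msh6. Both counting intervals left out 0 for Cdkn1a (-0.35 to -0.28 in DPCs, 0.06 to 0.12 in DSCs) and Msh6 (0.08 to 0.30 and -0.32 to -0.09). For the other 5 genes the DSC interval included 0, and the DSC signs of Ccnd1 (0.02) and E2f3 (0.02) did not hold under every scaling.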

How the results depend on the processing

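The 40 changes of the members were recomputed under 10 alternatives. Of 396 values, 332 stayed within the counting interval, and 12 changed sign. For 10 of the 12 the reported interval already included 0 (Ccnd1 and E2f1 in DSCs, and Cdk6 between cell types). The other 2 concern Ccne2 in DPCs over DSCs at passage 9, which was 0.19 and 0.14 on FPKM with a pseudocount of 0.1 and 1. The FPKM settings also moved the median change in DSCs to -0.12 with either pseudocount and that in DPCs to -0.86 with a pseudocount of 1. At passage 3, the count of members 2-fold apart went from 1 to 0 under total counts. The count of members 4-fold changed in DPCs went from 2 to 1 with a minimum count of 100, which leaves out E2f2, and with an FPKM pseudocount of 0.1, and to 0 with 1. At passage 9, the count 4-fold apart went from 1 to 0 with a prior count of 10, the minimum of 100 and both FPKM settings, and the count 2-fold apart from 2 to 1 with the minimum of 100 and an FPKM pseudocount of 1. That pseudocount took the DSC count at 2-fold from 3 to 1 and the DPC count at 2-fold from 6 to 4. The DPC count was 7 under total counts and with no minimum count, and 5 with the minimum of 100. A larger pseudocount shrinks the folds of low genes by construction.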
